A study of Mus musculus with 20 samples.

Results

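The genes described here are those of the transforming growth factor beta (TGF-beta) superfamily on a real-time PCR panel for mouse inflammation: the bone morphogenetic proteins (BMPs), the growth differentiation factors (GDFs), the TGF-betas, activins and inhibins, Nodal and its inhibitors, their receptors and the latent TGF-beta binding proteins. Members were the assays whose gene symbol starts with Bmp (Bmpr included), Gdf, Tgfb, Inha, Inhb, Acvr, Lefty, Nodal, Cer1 or Ltbp, a choice by name that used no measured value. They came to 41 of the 648 assays and 33 of the 585 symbols. No assay analysed here began with Smad or Fst, so the SMAD transducers and follistatin were not analysed here.

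Total RNA of ileal mucosa was measured in 20 mouse samples, 5 in each of 4 groups. Healthy controls had phosphate-buffered saline (PBS) by both the rectal and the oral route. The DNBS group had rectal DNBS (dinitrobenzene sulfonic acid, a hapten used to provoke intestinal inflammation) and oral PBS. The CEC group had rectal DNBS and an oral treatment labelled CEC, letters that the labels do not spell out, and the Nissle group had rectal DNBS and oral Nissle, the name of a probiotic Escherichia coli strain. All 3 groups other than the healthy controls thus carried DNBS. Strain, age, doses and times are not given in the sources used here. The series' design text speaks of pooling mouse RNA before measurement, so the labels do not settle whether a sample is 1 mouse, and the p-values measure a spread between samples that may be technical.

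Ligands of this family are secreted, mostly as dimers, and bind pairs of type I and type II serine/threonine kinase receptors, which phosphorylate SMAD proteins. TGF-betas leave the cell in a latent complex that latent TGF-beta binding proteins tether to the matrix. In the intestine, BMPs of the mesenchyme restrain the stem cell zone of the crypt, and TGF-beta limits inflammation and shapes T cell and fibroblast responses. Soluble inhibitors such as the Lefty proteins hold back Nodal.

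The values deposited are cycle thresholds (Ct), the PCR cycle at which fluorescence passes a set level, so that a lower Ct means more template. Levels below are relative levels on a log2 scale: the negative of the assay's Ct after subtracting the same sample's mean Ct over the 544 assays that gave a value in every sample. A higher relative level means more template, and a step of 1 is a doubling on the assumption, not tested, that the product doubles at every cycle. Assays have their own efficiency, so levels were compared between samples and not between genes. The summed levels of marker lists given below add the assays of a list on the linear scale, so those with the lowest Ct weigh most. Sample values are listed in the order 1b, 3, 4, 5 and 6 for healthy controls, 1 to 5 for the DNBS and Nissle groups, and 1, 3, 5, 7 and 8 for the CEC group.

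Per sample, 570 to 594 assays gave a value and the mean Ct was 22.6 to 24.3 cycles. The 5 assays for markers of the small intestinal epithelium (Apoa1, Krt8, Reg3g, Ccl25) gave a value in all 20 samples. Their summed levels were 11.07 to 12.38 on the log2 scale. A value in every sample came from 544 of the 648 assays, so detection of these 5 does not test the mucosal label. None of the 10 listed markers of fibroblasts, smooth muscle and stroma had an assay among those analysed here. Levels also varied with the place of an assay in the row order of the values, read as 12 sections of 54 assays. No plate layout is given in the sources used here. Among the section sizes tried, 54 rows took up the largest share of the variance, 17.7% after adjustment for the number of sections. The section means within a sample spanned 2.76 cycles in healthy 5, 2.43 in DNBS 5 and 1.77 in DNBS 1, against 0.344 to 1.41 in the other samples. Differences after centring each section in each sample are plotted as crosses for all tested members in the plot of differences from healthy, and are given in the text for some. Nissle 3, 4 and 5 carry a contradictory label, healthy control as experimental group, against title, description and both treatments, and were kept in the Nissle group.

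Most of the family gave a value throughout, though a smaller share than of the whole panel. Of the 41 assays, 29 gave a value in all 20 samples, 7 in some and 5 in none. Over the whole panel of 648 assays these counts were 544, 78 and 26. The silent ones were those of Acvr2b, a type II receptor for activins, Bmp10, a ligand best known from the heart, Cer1, a secreted inhibitor of Nodal and BMPs, and 1 assay each of Bmp7 and Lefty2. Bmp7 was measured by other assays in every sample, so no value from 1 assay does not mean that a gene was silent. Lefty2 gave values in every sample only with assays that sit in 1 exon or may read genomic DNA. Those values do not show that its RNA was present. No value says only that no product was seen within 40 cycles.

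**Figure D1:**
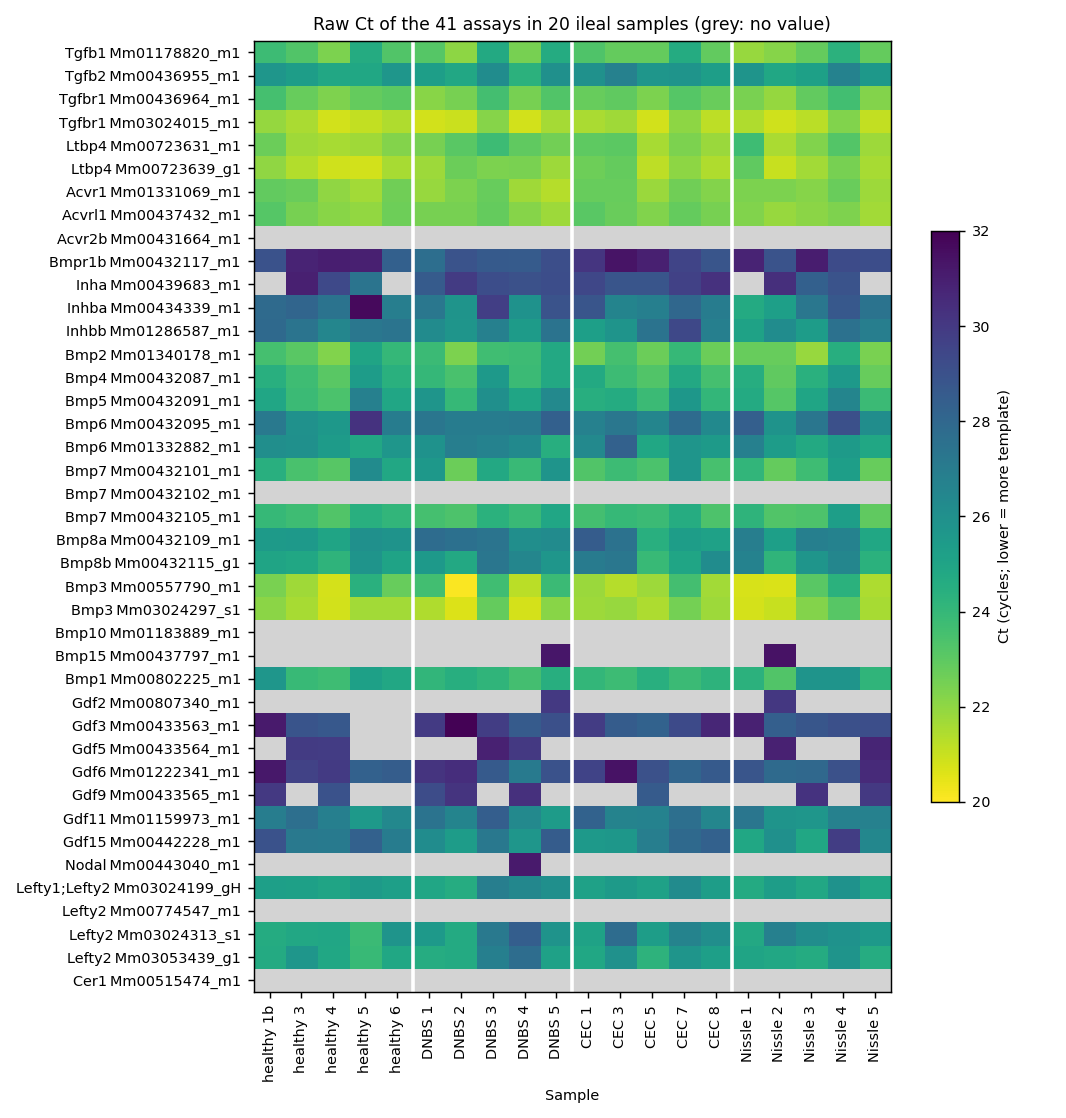
Raw Ct of the 41 assays (rows, named by gene and assay) in the 20 samples (columns, grouped as healthy, DNBS, CEC and Nissle), with colour from 20 cycles (yellow) to 32 cycles (dark purple) and grey for no value. The 5 assays without any value are grey throughout, and Gdf5, Gdf9, Gdf2, Bmp15, Nodal, Gdf3 and Inha are grey in part.

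The partly detected members were mostly ligands known from germ cells, the skeleton and the embryo. Nodal, a morphogen of the early embryo, gave a single value, at 31.1 cycles in DNBS 4. Bmp15, an oocyte ligand, gave values at 31.3 cycles in DNBS 5 and 31.4 in Nissle 2. Gdf2, a ligand for endothelial receptors, was seen in the same 2 samples, at 30.0 and 30.1 cycles. Gdf9, the oocyte partner of Bmp15, gave a value in 8 samples: 2 healthy, 3 DNBS, 1 CEC and 2 Nissle, at 28.6 to 30.3 cycles. Gdf5, which acts in joint formation, gave one in 6 samples: 2 healthy, 2 DNBS, 0 CEC and 2 Nissle, at 29.9 to 30.9 cycles. Gdf3 was missing only in healthy 5 and healthy 6, and its values lay at 28.2 to 31.9 cycles.

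No member passed a test of detection between groups. Fisher's exact test was run on every assay whose detection varied within a comparison, two-sided, on 5 against 5 samples, where the smallest p it can give is 0.00794. The smallest p of a member was 0.444 in each of the 6 comparisons. Over all assays it called 0 of 67, 63, 63, 58, 58 and 60 (0%) after adjustment, with 2, 2, 3, 1, 2 and 1 at an unadjusted p under 0.05, for DNBS, CEC and Nissle against healthy, CEC and Nissle against DNBS, and CEC against Nissle. The 10 members with too few values in a group were not tested for level, which left 31 of 41 assays among the 569 tested.

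In the DNBS group against the healthy controls, most members had lower means. Leading them were assays of the latent TGF-beta binding protein gene Ltbp4, the Nodal inhibitor gene Lefty2 and the paralogues Bmp8a and Bmp8b. Lefty1 was read only by an assay shared with Lefty2, and all Lefty assays with values sit in 1 exon or may read genomic DNA. Bmpr1b, Gdf15 and the activin subunit gene Inhbb had higher means. No member passed the threshold. Limma called 0 of the 31 members at an adjusted p under 0.05 over all assays, against 1 of 569 (0.176%), and 6 members had an unadjusted p under 0.05, against 83 of 569 (14.6%). These 6 were both Ltbp4 assays, the 3 Lefty assays with values and Bmp8a. That 6 was 3 with quantile normalization or with the sample number as a block, and 4 without normalization. It was 7 with sections centred, 8 with reference assays and 9 with array weights. With 1 sample of either group left out it was 2 to 7 (2 without DNBS 4). With a lower mean stood 24 of the 31 members (median -0.33 on the log2 scale), against 315 of 569 assays (55.4%, median -0.07). Genes with more than 1 assay, such as Ltbp4, count more than once in the 24. After centring of sections the same number of members, 24, had lower means. Without normalization 18 had, with a median of -0.096, while the median of all assays was 0.16, so the direction is relative to the panel. The groups did not overlap for 2 members, Ltbp4_Mm00723631_m1 and Bmp8a, against 27 of 569 assays (4.75%). With the sample number as a block, 2 of 569 assays (0.351%) and 0 members were called. With array weights, which count the noisier samples less, 90 of 569 assays (15.8%) and 7 members were called: both Ltbp4 assays, Bmp8a, Bmp8b, Bmp5, Lefty2_Mm03024313_s1 and the shared Lefty1 and Lefty2 assay. The lowest weights in these groups were those of healthy 5 (0.28), DNBS 5 (0.43) and DNBS 2 (0.50).

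**Figure D2:**
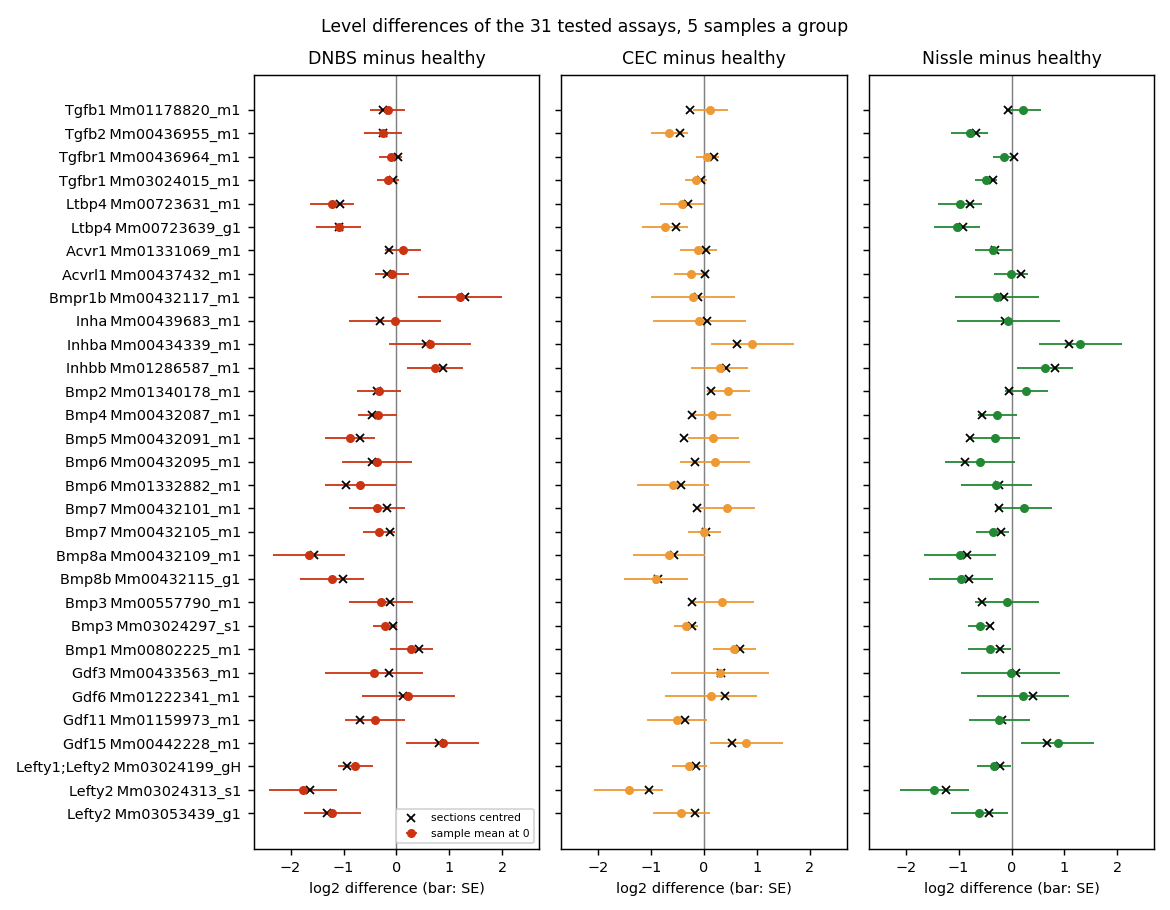
Difference in mean relative level (log2, x axis) of each of the 31 tested assays (rows) for DNBS, CEC and Nissle minus healthy. Dots and SE bars are from the fit to 5 samples a group, and crosses are the same difference after centring sections. The Ltbp4, Bmp8 and Lefty assays lie left of 0 in all 3 panels, and Inhbb and Gdf15 lie right of 0; none passed the threshold.

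Markers of other cell types moved with that comparison. All 8 assays of the neutrophil list were higher in the DNBS group (median 2.14, 0 called), with summed levels of 2.04 to 5.98 against 0.96 to 2.18 in the healthy controls. Those of Fpr1, Camp and Ncf1 differed by less than their SE, at 0.086 (SE 0.579), 0.14 (SE 0.826) and 0.19 (SE 0.294). S100a8 counts with 2 assays. Of the 5 epithelial assays 4 were lower (median -0.72, 0 called), and that of Reg3g was higher by 0.56 (SE 0.323). Their summed levels were 11.21 to 12.38 (median 11.99) against 11.44 to 12.03 (median 11.58), higher by the median. The mast cell marker Kit differed by -0.71 (SE 0.264) and the endothelial marker Selp by 1.59 (SE 0.586). The T cell markers Cd4 and Cd28 differed by -0.80 (SE 0.329) and -0.36 (SE 0.421), and the B cell marker Cr2 by -0.62 (SE 0.678). None of these passed the threshold. Fcer1a and Sele, the other mast cell and endothelial markers with an assay, gave values in 9 and 15 of the 20 samples and were not tested. Of the 6 assays for macrophages and monocytes 4 were higher and 2 lower, with summed levels of 2.54 to 3.13 against 2.15 to 2.79. The part of cell composition in the members' differences was not tested, and in whole mucosa fewer cells of a type and less RNA per cell cannot be told apart.

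Ltbp4, whose protein anchors latent TGF-beta in the matrix, had the smallest p of any member in that comparison. With Ltbp4_Mm00723631_m1, which spans an exon junction, the healthy controls stood at 1.23, 1.80, 1.39, 2.08 and 1.43 and the DNBS samples at 0.56, -0.28, 0.32, 0.035 and 1.23. Every DNBS sample lay below every healthy one, though the highest, DNBS 5, missed the lowest, healthy 1b, by less than these 2 decimals show. The means were 1.59 ± 0.34 and 0.37 ± 0.57 (SD, n = 5 each), a difference of -1.21 (SE 0.413, adjusted p = 0.158), or 2.32-fold lower.

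The CEC samples stood at 0.65, 0.28, 1.50, 1.90 and 1.53 with the same assay and the Nissle samples at -1.13, 1.23, 0.92, 0.82 and 1.22. The CEC values fell apart into CEC 1 and 3 below the healthy range and CEC 5, 7 and 8 inside it. Nissle 1 was the lowest of all 20 samples, and the other Nissle samples reached up to the healthy range without entering it. Against healthy the differences were -0.41 (SE 0.413, adjusted p = 0.821) for CEC and -0.97 (SE 0.413, adjusted p = 0.488) for Nissle, and the latter was -0.54 without Nissle 1 and -1.54 without Nissle 3, 4 and 5.

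The other Ltbp4 assay, Ltbp4_Mm00723639_g1, of a design that may also amplify genomic DNA, gave 1.91, 2.10, 2.08, 2.96 and 2.08 in the healthy controls and 1.27, 0.11, 1.72, 0.55 and 2.02 in the DNBS group. Here DNBS 5 lay inside the healthy range and the other DNBS samples below it. CEC samples had 0.98, 0.49, 1.85, 2.24 and 1.88 and Nissle samples -0.34, 1.78, 1.55, 1.57 and 1.41. All 5 Nissle samples lay below the healthy ones, Nissle 1 by far the lowest. The differences from healthy were -1.09 (SE 0.429, adjusted p = 0.204) for DNBS, -0.74 (SE 0.429, adjusted p = 0.803) for CEC and -1.03 (SE 0.429, adjusted p = 0.488) for Nissle. The Nissle value was -0.65 without Nissle 1 and -1.51 without Nissle 3, 4 and 5. The Ct of the pair of Ltbp4 assays differed by a nearly constant amount, with an SD of 0.286 cycles over the 20 samples.

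Bmp8a and Bmp8b are neighbouring paralogues on chromosome 4 whose ligands are known from germ cells and thermogenic fat. Whether each assay reads only its own gene was not tested. With Bmp8a_Mm00432109_m1, the healthy controls gave -1.54, -2.06, -2.02, -2.21 and -2.19 and the DNBS samples -4.74, -4.77, -3.27, -3.11 and -2.41. The groups did not overlap, and DNBS 5 was the nearest to the healthy range. The means were -2.00 ± 0.27 and -3.66 ± 1.05 (SD, n = 5 each), a difference of -1.65 (SE 0.678, adjusted p = 0.229).

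With the same Bmp8a assay CEC samples gave -4.90, -4.17, -1.38, -1.04 and -1.83 and Nissle samples -4.28, -2.46, -3.63, -2.64 and -1.89. CEC 1 lay below every DNBS sample and CEC 3 below DNBS 3, 4 and 5, while CEC 5, 7 and 8 lay inside or above the healthy range. The differences from healthy were -0.66 (SE 0.678, adjusted p = 0.821) for CEC and -0.98 (SE 0.678, adjusted p = 0.575) for Nissle.

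The single Bmp8b assay, Bmp8b_Mm00432115_g1, gave -1.06, -1.34, -1.25, -2.02 and -1.41 in healthy, -2.54, -1.94, -3.18, -3.57 and -1.93 in DNBS, -3.38, -3.91, -0.86, -0.67 and -2.84 in CEC and -4.09, -1.39, -2.52, -2.46 and -1.38 in Nissle samples. Healthy 5 was the lowest control, and DNBS 2 and DNBS 5 overlapped it. Its differences from healthy were -1.22 (SE 0.606, adjusted p = 0.376), -0.92 (SE 0.606, adjusted p = 0.803) and -0.95 (SE 0.606, adjusted p = 0.539). CEC 1, CEC 3 and Nissle 1 were thus the lowest samples of their groups for Bmp8a, Bmp8b and both Ltbp4 assays.

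Because these 3 genes had low means together, the 250 bases before their RefSeq starts are shown, from the tables of build GRCm38.p6. Capitals mark the letters CAGAC or GTCTG, the core of the SMAD binding element read on either strand. All 33 symbols matched the RefSeq gene table, and 22 member genes had a promoter window.
Bmp8a, minus strand, chr4:123343253-123343502: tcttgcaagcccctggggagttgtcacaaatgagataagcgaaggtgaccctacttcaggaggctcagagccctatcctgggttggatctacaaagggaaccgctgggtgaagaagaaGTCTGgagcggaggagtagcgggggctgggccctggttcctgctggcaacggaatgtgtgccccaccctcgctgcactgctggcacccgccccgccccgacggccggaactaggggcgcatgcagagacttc
Bmp8b, plus strand, chr4:123104911-123105160: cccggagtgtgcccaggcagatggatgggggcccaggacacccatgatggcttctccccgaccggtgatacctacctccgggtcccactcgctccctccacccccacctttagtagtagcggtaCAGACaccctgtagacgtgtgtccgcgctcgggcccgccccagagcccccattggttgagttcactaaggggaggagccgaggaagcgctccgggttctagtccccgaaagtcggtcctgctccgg
Ltbp4, minus strand, chr7:27337613-27337862: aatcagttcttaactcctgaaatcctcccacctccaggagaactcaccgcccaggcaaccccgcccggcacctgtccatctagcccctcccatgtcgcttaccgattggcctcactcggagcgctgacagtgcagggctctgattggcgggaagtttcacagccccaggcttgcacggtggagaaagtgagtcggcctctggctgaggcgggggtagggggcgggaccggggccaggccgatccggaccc

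The Bmp8a window held 1 match, starting 132 bases before the start, and the Bmp8b window 1, starting 126 bases before it. The Ltbp4 window, the most upstream of 3 in the table, held 0. The letters occur in any window of 11 of the 22 member genes with a window (50%). They occur in 42.19% of the 32851 windows of the table, a share per window and not per gene. A match is a description of the sequence and marks no binding site.

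Lefty1 and Lefty2 encode secreted inhibitors of Nodal, and they were read by 4 assays that did not behave alike. The exon-junction assay of Lefty2 gave no value in any sample. The single-exon assay Lefty2_Mm03024313_s1 gave -0.72, -1.31, -1.92, -0.056 and -2.17 in the healthy controls and -2.56, -1.87, -3.06, -5.45 and -2.06 in the DNBS group. DNBS 4 was the lowest of the 20 samples, and DNBS 2 and DNBS 5 lay inside the healthy range. Means were -1.24 ± 0.87 and -3.00 ± 1.45 (SD, n = 5 each), a difference of -1.76 (SE 0.647, adjusted p = 0.158), the largest of any member in that comparison, which was -1.15 without DNBS 4.

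CEC samples gave -1.50, -4.42, -2.28, -2.35 and -2.75 and Nissle samples -2.17, -4.01, -2.91, -1.85 and -2.54 with this assay. CEC 3 and Nissle 2 were the low ones of their groups. Their differences from healthy were -1.43 (SE 0.647, adjusted p = 0.803) and -1.46 (SE 0.647, adjusted p = 0.488).

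The assay Lefty2_Mm03053439_g1, which may read genomic DNA, gave -0.75, -2.20, -1.90, -0.15 and -1.20 in healthy and -1.55, -1.88, -2.73, -4.76 and -1.34 in DNBS samples, with DNBS 4 again the lowest. CEC samples had -1.23, -2.61, -1.17, -1.45 and -1.90 and Nissle samples -2.41, -2.05, -1.42, -1.75 and -1.60, both inside or just below the healthy range. It differed from healthy by -1.21 (SE 0.538, adjusted p = 0.299) for DNBS, -0.43 (SE 0.538) for CEC and -0.61 (SE 0.538) for Nissle. The assay shared by Lefty1 and Lefty2, Lefty1;Lefty2_Mm03024199_gH, gave -1.31, -1.69, -2.04, -1.69 and -1.58 in healthy, -1.89, -1.78, -2.76, -3.53 and -2.24 in DNBS, -1.53, -2.16, -2.06, -1.94 and -2.01 in CEC and -2.08, -2.54, -1.59, -1.81 and -1.94 in Nissle samples. DNBS 3, 4 and 5 lay below the healthy range. Its difference was -0.78 (SE 0.327, adjusted p = 0.251) for DNBS, -0.28 (SE 0.327) for CEC and -0.33 (SE 0.327) for Nissle.

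**Figure D3:**
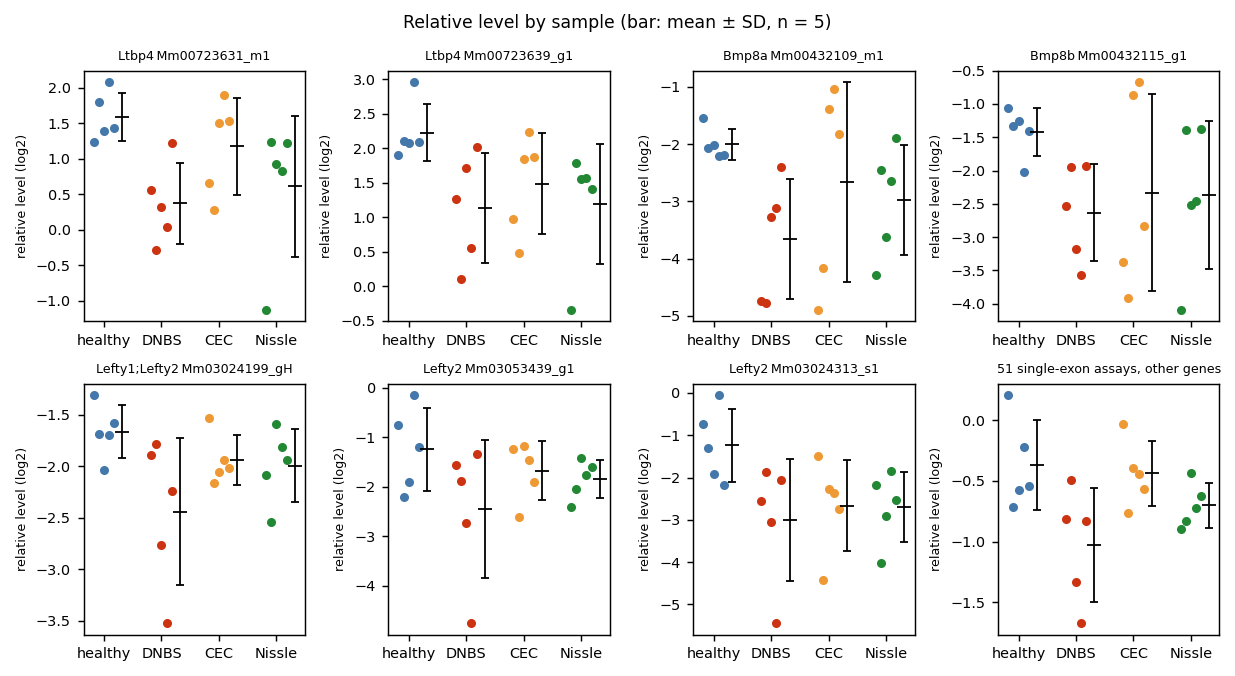
Relative level (log2, y axis) of 7 assays in each of the 20 samples by group, with dots for samples and black bars for mean ± SD (n = 5), and in the last panel the mean level of 51 single-exon assays of other genes. All DNBS samples lie below the healthy ones for Ltbp4_Mm00723631_m1 and Bmp8a, and DNBS 4 is the lowest sample of the 3 Lefty panels and of the last one.

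The kind of assay moved with this result. Of the members tested, 25 span an exon junction, and 18 of these had lower means in the DNBS group (median -0.25), against 236 of 461 such assays on the panel (median -0.01). The other 6, which sit in 1 exon or may read genomic DNA, were all lower (median -1.15), against 79 of 108 such assays (median -0.30). These 6 are the 3 Lefty assays with values, Bmp8b, Ltbp4_Mm00723639_g1 and Bmp3_Mm03024297_s1. The 51 single-exon assays of other genes had a mean level of -0.37 ± 0.37 in healthy, -1.03 ± 0.47 in DNBS, -0.44 ± 0.27 in CEC and -0.70 ± 0.18 in Nissle samples (SD, n = 5 each), lowest in DNBS 4 at -1.67. The part of genomic template in the Lefty differences was not tested. Bmp8a and Ltbp4_Mm00723631_m1 span exon junctions.

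Neither TGF-beta ligand gene on the panel passed in any comparison. Tgfb1, which encodes the main TGF-beta of immune cells, stood at 0.16, 0.23, 0.60, -0.85 and 0.38 in the healthy controls and -0.14, 0.79, -0.61, 0.50 and -0.85 in the DNBS group. CEC samples had 0.32, 0.48, 0.23, -0.35 and 0.43 and Nissle samples 0.74, 0.60, 0.38, -0.25 and 0.14. All 4 groups overlapped, with healthy 5 and DNBS 5 the lowest. Differences from healthy were -0.17 (SE 0.333) for DNBS, 0.12 (SE 0.333) for CEC and 0.22 (SE 0.333) for Nissle. With sections centred those of CEC and Nissle turned to -0.26 and -0.075, and without healthy 5 to -0.12 and -0.020.

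Tgfb2, an isoform of epithelium and mesenchyme, stood at -1.78, -1.81, -1.86, -1.05 and -2.04 in healthy and -2.24, -1.99, -2.09, -1.33 and -2.17 in DNBS samples. CEC samples gave -2.33, -3.39, -2.64, -1.50 and -1.95 and Nissle samples -3.18, -2.09, -1.97, -2.65 and -2.64. Healthy 5 was the highest sample, and all Nissle samples but Nissle 3 lay below the healthy range. The differences from healthy were -0.25 (SE 0.359) for DNBS, -0.65 (SE 0.359, adjusted p = 0.803) for CEC and -0.80 (SE 0.359, adjusted p = 0.488) for Nissle. No assay for the third isoform was among the members.

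Tgfbr1, the type I receptor for TGF-beta, was read by 2 assays whose Ct difference varied by an SD of 0.237 cycles. With Tgfbr1_Mm03024015_m1 the healthy controls gave 2.04, 1.97, 2.12, 2.69 and 2.23 and the Nissle samples 1.15, 1.89, 1.97, 1.80 and 1.85. The groups did not overlap, and the nearest values were equal to 2 decimals. DNBS samples gave 2.18, 1.86, 1.93, 2.11 and 2.16 and CEC samples 2.07, 1.63, 2.23, 2.23 and 2.13, with DNBS 2, DNBS 3 and CEC 3 below the healthy range. Compared with healthy, the differences were -0.16 (SE 0.204) for DNBS, -0.15 (SE 0.204) for CEC and -0.48 (SE 0.204, adjusted p = 0.488) for Nissle.

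The other Tgfbr1 assay, Tgfbr1_Mm00436964_m1, gave 0.36, 0.73, 0.65, 0.96 and 0.62 in healthy, 0.88, 0.36, 0.50, 0.49 and 0.54 in DNBS, 0.82, 0.40, 0.70, 1.13 and 0.59 in CEC and 0.20, 0.89, 0.33, 0.40 and 0.76 in Nissle samples. These groups overlapped, and the Nissle difference was -0.15 (SE 0.211), smaller than with the first assay. Acvr1, a type I receptor for BMPs and activins, had group means from 0.84 in the Nissle group to 1.31 in the DNBS group, and Acvrl1, a type I receptor of endothelium, from 0.84 in the CEC group to 1.09 in the healthy controls. The smallest adjusted p of either gene against the healthy controls was 0.685.

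Bmpr1b, a type I receptor for BMPs and GDFs, was amplified late, at 27.7 to 31.4 cycles. It gave -5.05, -7.32, -8.01, -7.17 and -4.67 in healthy and -4.66, -6.10, -4.48, -5.63 and -5.33 in DNBS samples. CEC samples had -6.56, -8.06, -7.88, -5.24 and -5.51 and Nissle samples -8.23, -6.14, -7.82, -5.20 and -6.22. DNBS 1 and DNBS 3 lay above the healthy range, and the other DNBS samples lay inside it. Its difference was 1.20 (SE 0.787, adjusted p = 0.521) for DNBS against healthy and -1.48 (SE 0.787, adjusted p = 0.850) for Nissle against DNBS.

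Inhba and Inhbb encode the beta subunits that pair into activins, and Inha the alpha subunit that turns them into inhibins. Inhba gave -3.93, -4.58, -4.47, -7.93 and -3.24 in healthy and -4.23, -3.00, -5.66, -2.93 and -5.15 in DNBS samples. CEC samples had -5.22, -3.26, -3.76, -3.71 and -3.65 and Nissle samples -2.05, -2.47, -4.05, -4.66 and -4.44. Healthy 5 was the lowest of all samples by far, and the remaining groups overlapped the other controls. The differences from healthy, 0.64 (SE 0.782), 0.91 (SE 0.782) and 1.30 (SE 0.782) for DNBS, CEC and Nissle, rest on that sample: without it they were -0.14, 0.14 and 0.52.

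Inhbb gave -3.98, -3.87, -3.52, -3.45 and -3.77 in healthy, a narrow range, and -3.21, -2.92, -2.68, -2.45 and -3.66 in DNBS samples. CEC samples had -1.64, -2.49, -4.38, -5.12 and -3.49 and Nissle samples -2.49, -3.41, -2.14, -3.46 and -3.92. All DNBS samples but DNBS 5 lay above the healthy range, and the CEC group held both the highest and the lowest sample. The differences from healthy were 0.73 (SE 0.532), 0.29 (SE 0.532) and 0.63 (SE 0.532) for DNBS, CEC and Nissle, and that of CEC was -0.15 without CEC 1. Inha gave -7.47, -6.37 and -3.58 in healthy 3, 4 and 5, -5.55, -7.10, -5.07, -6.09 and -5.36 in DNBS, -5.85, -5.53, -5.78, -5.38 and -6.95 in CEC, and -7.61, -5.11 and -4.87 in Nissle 2, 3 and 4. It was missing in healthy 1b and 6 and in Nissle 1 and 5, and its fit rests on the remaining values, with a DNBS difference of -0.026 (SE 0.876).

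Among the BMP ligands, Bmp2, Bmp4 and Bmp5 are made by the intestinal mesenchyme and epithelium. Bmp5 gave -0.96, -0.30, -0.43, -2.99 and -1.27 in healthy and -2.72, -1.15, -1.90, -2.02 and -2.56 in DNBS samples. CEC samples had -0.89, -1.31, -0.74, -1.37 and -0.75 and Nissle samples -2.08, -0.37, -1.71, -2.48 and -0.86. The CEC samples sat close together above all DNBS samples but DNBS 2. Bmp5 had the smallest p of any member for CEC against DNBS, 1.06 (SE 0.477, adjusted p = 0.455), and this became 0.31 after centring of sections. Against healthy its differences were -0.88 (SE 0.477), 0.18 (SE 0.477) and -0.31 (SE 0.477) for DNBS, CEC and Nissle, and -0.69, -0.39 and -0.78 with sections centred.

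Bmp2 gave 0.38, 0.41, 0.67, -1.19 and -0.39 in healthy and -0.78, 0.42, 0.40, -0.83 and -0.97 in DNBS samples. CEC samples had 1.07, -0.20, 0.38, 0.34 and 0.61 and Nissle samples -0.18, -0.023, 1.35, -0.43 and 0.57. CEC samples were higher than DNBS 1, 4 and 5 and overlapped the rest. The difference was 0.79 (SE 0.409, adjusted p = 0.476) for CEC against DNBS and 0.50 with sections centred. Bmp4 had group means from -0.99 in the DNBS group to -0.49 in the CEC group, and its CEC minus DNBS difference was 0.50 (SE 0.372).

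Bmp3, whose protein opposes other BMPs, was read by 2 assays. The single-exon assay Bmp3_Mm03024297_s1 gave 1.81, 1.93, 2.13, 2.10 and 1.96 in healthy and 1.57, 2.15, 1.26, 2.18 and 1.67 in DNBS samples. CEC samples had 1.83, 1.49, 1.60, 1.77 and 1.57 and Nissle samples 1.83, 1.77, 0.98, 0.94 and 1.40. All CEC samples but CEC 1 and all Nissle samples but Nissle 1 lay below the healthy range. It had the smallest p of any member for Nissle against healthy, -0.60 (SE 0.223, adjusted p = 0.488), and it was -0.19 without the 3 Nissle samples of contradictory label. The exon-junction assay Bmp3_Mm00557790_m1 gave 1.49, 1.79, 2.16, -0.57 and 0.85 in healthy, -0.60, 2.75, 0.40, 1.70 and -0.031 in DNBS, 1.79, 2.01, 1.30, 0.69 and 1.64 in CEC and 1.86, 2.10, 0.13, -0.30 and 1.51 in Nissle samples. Its spread was wider, with healthy 5 and DNBS 1 the lowest, and its Nissle difference was -0.086 (SE 0.606), or -0.56 with sections centred.

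Bmp7, an epithelial ligand, had 2 assays with values. Bmp7_Mm00432101_m1 gave -0.54, 0.059, -0.17, -2.44 and -1.17 in healthy, -2.59, 0.12, -0.68, -0.92 and -2.00 in DNBS, 0.35, -0.46, -0.36, -1.48 and -0.17 in CEC and -1.50, -0.043, -0.50, -1.23 and 0.16 in Nissle samples. Healthy 5, DNBS 1 and DNBS 5, the samples with the widest sections, were its lowest values. Bmp7_Mm00432105_m1 gave -0.064, -0.21, -0.29, -0.66 and -0.46 in healthy, -0.52, -0.53, -0.22, -0.94 and -1.13 in DNBS, 0.029, -0.63, -0.77, -0.27 and -0.023 in CEC and -1.61, -0.50, -0.15, -1.24 and 0.029 in Nissle samples, all groups overlapping. Against healthy the 2 assays gave -0.36 (SE 0.528) and -0.33 (SE 0.308) for DNBS.

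Bmp6, best known for its control of iron balance, had assays that disagreed most. Bmp6_Mm00432095_m1 gave -3.24, -2.42, -2.63, -6.47 and -3.30 in healthy, -4.26, -4.15, -2.85, -4.10 and -4.55 in DNBS, -3.12, -3.92, -3.49, -3.51 and -3.00 in CEC and -5.75, -3.06, -4.06, -5.02 and -3.15 in Nissle samples. Healthy 5 was the lowest sample with this assay. Bmp6_Mm01332882_m1 gave -2.16, -2.47, -2.44, -1.02 and -2.07 in healthy, -2.86, -4.07, -2.60, -3.37 and -0.68 in DNBS, -2.75, -4.96, -1.77, -1.48 and -2.13 in CEC and -4.17, -2.60, -1.52, -1.41 and -1.88 in Nissle samples, and there healthy 5 was the highest control. The Ct difference of the 2 Bmp6 assays was 5.46 cycles in healthy 5 and -1.04 in CEC 3.

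Across the 6 genes with 2 usable assays, the SD of the Ct difference over the 20 samples was 0.237 cycles for Tgfbr1, 0.286 for Ltbp4, 0.721 for Lefty2, 0.738 for Bmp7, 0.890 for Bmp3 and 1.53 for Bmp6. Centring of sections brought it to 0.277 for Bmp3, 0.270 for Bmp7 and 0.930 for Bmp6, and left 0.278 for Tgfbr1, 0.244 for Ltbp4 and 0.762 for Lefty2. For Bmp3 and Bmp7 the disagreement thus shrank when sections of the row order were centred, and for Lefty2 and Tgfbr1 it did not.

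**Figure D4:**
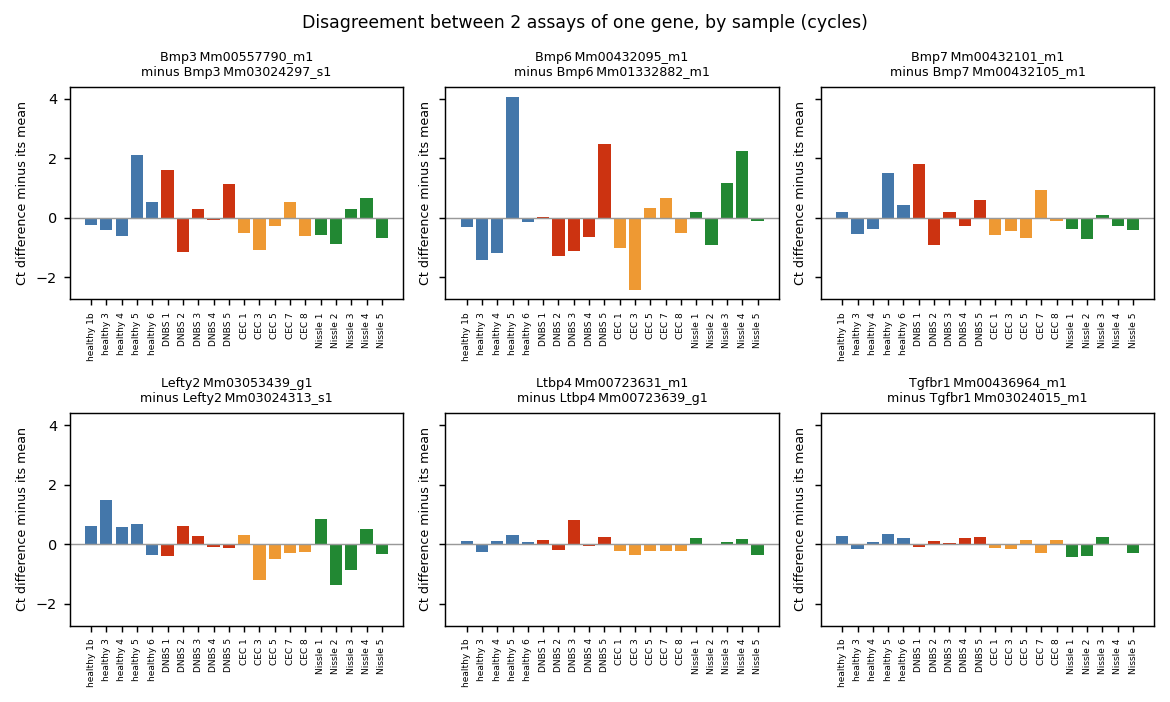
Ct of 1 assay minus Ct of another assay of the same gene, less the mean of that difference (cycles, y axis), in each of the 20 samples (x axis, coloured by group) for 6 genes. Healthy 5 stands out for Bmp6 and Bmp3, and DNBS 1 for Bmp7, while the bars of Ltbp4 and Tgfbr1 stay short, with SDs of 0.286 and 0.237 cycles.

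Bmp1 is a metalloprotease that trims procollagen and is no ligand in spite of its name. It gave -1.80, -0.43, -0.79, -1.40 and -1.17 in healthy and -1.09, -1.67, -0.068, -0.66 and -0.69 in DNBS samples. CEC samples had -0.45, -0.44, -1.36, 0.47 and -0.94 and Nissle samples -1.71, -0.47, -2.59, -1.72 and -1.18. Nissle 3 was the lowest sample and CEC 7 the highest. Bmp1 had the smallest p of any member for CEC against Nissle, 0.99 (SE 0.411, adjusted p = 0.998), and it differed by -0.70 (SE 0.411, adjusted p = 0.850) for Nissle against DNBS. Without the 3 Nissle samples of contradictory label these were 0.55 and -0.26.

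Of the GDFs detected in nearly all samples, Gdf15, a cytokine of cellular stress, had higher means in all 3 DNBS-treated groups, by 0.87 (SE 0.688), 0.80 (SE 0.688) and 0.87 (SE 0.688) against the healthy controls. Its healthy samples ranged over -5.05 to -3.32 and its DNBS samples over -4.74 to -2.56. Gdf11, a close relative of myostatin, had means from -3.61 in the CEC group to -3.10 in the healthy controls. Gdf6 and Gdf3, which amplified at 27.0 to 31.4 and 28.2 to 31.9 cycles, had DNBS differences of 0.23 (SE 0.872) and -0.43 (SE 0.930).

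How the family stood in DNBS-treated mice given CEC was judged by setting CEC samples against healthy controls. Members split evenly, with 16 of 31 lower (median -0.09, and -0.08 over all assays). With undetermined values set to 40 cycles, which brings in all 41 assays, 15 of these 31 and 25 of the 41 were lower. The added assays include 5 without any value, whose sign there reflects only the scaling of samples. Limma called 0 members, against 1 of 569 assays (0.176%), and 1 member, Lefty2_Mm03024313_s1, had an unadjusted p under 0.05, against 22 of 569 (3.87%). The groups did not overlap for 0 members, against 5 of 569 (0.879%). After Lefty2, the smallest p-values were those of Tgfb2 and Ltbp4_Mm00723639_g1, at the adjusted p of 0.803 that they share.

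In the Nissle group, compared with the same healthy controls, 24 of 31 members had lower means (median -0.29, and -0.10 over all assays). Limma called 0 members, against 1 of 569 assays (0.176%), and 6 members had an unadjusted p under 0.05, against 54 of 569 (9.49%). These 6 were both Ltbp4 assays, Bmp3_Mm03024297_s1, Tgfbr1_Mm03024015_m1, Tgfb2 and Lefty2_Mm03024313_s1. That 6 was 3 with reference assays or quantile normalization, 2 with array weights and 0 without normalization, and 2 to 7 with 1 sample of either group left out (2 without healthy 5 or without Nissle 1). The groups did not overlap for 3 members, both Ltbp4 assays and Tgfbr1_Mm03024015_m1, against 17 of 569 (2.99%). The 8 neutrophil assays were all higher (median 1.38, 0 called), with summed levels of 1.47 to 7.51 against 0.96 to 2.18 in the healthy controls. That of Ncf1 differed by 0.022 (SE 0.294) and that of Fpr1 by 0.24 (SE 0.579). The B cell marker Cr2 differed by -1.91 (SE 0.678), Kit by -0.73 (SE 0.264) and Selp by 2.02 (SE 0.586). Cd4 and Cd28 differed by -0.51 (SE 0.329) and -0.29 (SE 0.421). None of these markers passed the threshold. The 6 members that do not span an exon junction were all lower (median -0.78), against 81 of 108 such assays (median -0.31). The part of these markers and of the kind of assay was not tested. Without normalization 10 of 31 members were lower and the median of all assays was 0.33, so this direction is relative to the panel. All 3 comparisons with the healthy controls share these 5 samples and are not independent.

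Oral CEC was read from the CEC against the DNBS group. There 21 of 31 members had higher means in the CEC group (median 0.29, and -0.02 over all assays), with the smallest p-values for Bmp5, Bmp2 and Ltbp4_Mm00723631_m1. Limma called 0 members, as it called 0 of 569 assays (0%), and 1 member, Bmp5, had an unadjusted p under 0.05, against 61 of 569 (10.7%). With array weights 21 of 569 assays (3.69%) and 1 member were called, Ltbp4_Mm00723631_m1 at 1.06 (SE 0.286, adjusted p = 0.0445), where the unweighted difference was 0.80 (SE 0.413, adjusted p = 0.476). The weights were 0.52 for CEC 1 and 0.63 for CEC 3, the lowest CEC samples for this assay. They were 1.83, 0.81 and 2.33 for CEC 5, 7 and 8. DNBS 5, the highest DNBS sample for it, had 0.43, and DNBS 2, the lowest, 0.50. The part of single weights in this call was not tested. The neutrophil assays were lower in the CEC group in 8 of 8 cases (median -1.22), with -0.054 (SE 0.826) for Camp and -0.078 (SE 0.579) for Fpr1. The epithelial ones were higher in 4 of 5 (median 1.12). Limma called 0 in either list, and the part of both lists in the members' differences was not tested.

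Oral Nissle against the DNBS group gave 18 of 31 members with higher means (median 0.09, and -0.06 over all assays). With undetermined values set to 40, 13 of these 31 and 23 of all 41 assays were lower. The added assays include 5 without any value, whose sign there reflects only the scaling of samples. Limma called 0 members and 0 of 569 assays (0%), and 0 members had an unadjusted p under 0.05, against 24 of 569 (4.22%). The smallest p-values were those of Bmpr1b, Bmp1 and Bmp3_Mm03024297_s1. The last differed by -0.38 (SE 0.223), and by 0.029 without the 3 Nissle samples of contradictory label. Between the oral treatments, 22 of 31 members had higher means in the CEC than in the Nissle group (median 0.18, and 0.06 over all assays), though without normalization 25 were lower. Limma called 0 members and 0 of 569 assays (0%), and 1 member, Bmp1, had an unadjusted p under 0.05, against 8 of 569 (1.41%). Next to Bmp1 stood Tgfbr1_Mm03024015_m1 at 0.33 (SE 0.204), which was -0.070 without normalization, and Ltbp4_Mm00723631_m1 at 0.56 (SE 0.413), which was 0.12 without Nissle 1 and 1.13 without Nissle 3, 4 and 5.

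Genes that work beside the family were read from a list of 46, of which 10 were on the panel with 11 assays. Mstn, which encodes the muscle ligand myostatin, gave no value in any sample. Of the 10 assays tested, 0 passed in any of the 6 comparisons, and 5 were higher and 5 lower in the DNBS group (median -0.01, and -0.07 over all assays). The BMP antagonist gene Grem1 differed by 0.67 (SE 0.674) there. Fn1, the matrix protein fibronectin and a target of TGF-beta, differed by 0.94 (SE 0.665), and Cdkn1a, a cell cycle inhibitor that TGF-beta can induce, by -0.83 (SE 0.313). Itgb6, a subunit of the integrin that frees TGF-beta from its latent complex, differed by -0.047 (SE 0.282), and Foxp3, the regulatory T cell factor, by 0.025 (SE 0.562). The assays for Fos (a pair), Jun and Mapk14 gave 0.076 (SE 0.455), 0.29 (SE 0.487), -0.075 (SE 0.364) and -0.14 (SE 0.238).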

How the data were processed

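Per the file headers, the authors deposited raw, non-normalized Ct values as a score per assay and sample, with 40 for no amplification (1273 cells, 9.82%; 1 cell was empty). RNA came from a mirVana kit and was run on OpenArray plates, per the labels' protocols. Baseline and threshold settings are not given in the sources used here. Ct minus the sample mean was negated and fitted with limma 3.58.1 in R 4.3.3: 4 group means over 20 samples, empirical Bayes with a trend, two-sided, with Benjamini-Hochberg adjustment at 0.05 over the 569 assays with at least 3 values in each group. The fit was tested on simulated data.

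Members, lists and tests were chosen with earlier results of these data known. Per sample values follow a rule: members past the threshold, the 3 smallest p-values of each comparison, members missing in 3 or more samples, both assays of a gene, and named ligands. Bmp8a and Bmp8b were added after their values were seen.

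DNBS and healthy samples share the numbers 3, 4 and 5 in their titles, and the deviations of same-numbered samples had correlations of 0.18, 0.14 and 0.49. The last is that of healthy 5 and DNBS 5, the samples with the widest sections. Samples of different numbers were not compared, so no pairing is shown, and the labels state none. Alternatives covered scaling, undetermined values, filters, weights, the replicate block, left-out samples and, added after seeing the data, sections of the row order. One listed gene's own value is not reported here.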

Additional observations from a re-analysis of the deposited data

Results flagged for a closer look

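In 15 of 121 groups of 4 or 5 values of a member, 1 sample stood far from the others of its group, where chance would give about 6.05, 1 in 20. Healthy 5 accounted for 6 of them. Its level was -7.93 for Inhba (nearest control -4.58), -6.47 for Bmp6_Mm00432095_m1 (nearest -3.30), -1.02 for Bmp6_Mm01332882_m1, 2.13 for Acvr1 (nearest 1.04), -1.05 for Tgfb2 and 2.96 for Ltbp4_Mm00723639_g1 (nearest 2.10). Healthy 5 is also the sample whose sections differed most.

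Nissle 1 stood low for both Ltbp4 assays, at -1.13 with Ltbp4_Mm00723631_m1 (nearest Nissle sample 0.82) and -0.34 with Ltbp4_Mm00723639_g1 (nearest 1.41), and for Tgfbr1_Mm03024015_m1, at 1.15 (nearest 1.80). With that Tgfbr1 assay CEC 3 stood at 1.63 (nearest 2.07). Inhba was low in CEC 1, at -5.22 (nearest -3.76). Gdf15 was low in DNBS 5, at -4.74 (nearest -3.13). Bmp6_Mm00432095_m1 was high in DNBS 3, at -2.85 (nearest -4.10), Tgfb2 was high in DNBS 4, at -1.33 (nearest -1.99), and Bmp8a was high in healthy 1b, at -1.54 (nearest -2.02).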

How the results depend on the processing

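No member was called in any comparison under any of the settings run, apart from array weights, which called 7 members for DNBS against healthy and 1 for CEC against DNBS. Over all assays, the count called for DNBS against healthy was 1 and became 90 with array weights, 9 in a fit to both groups alone, 2 with the replicate block and 0 without normalization, and 1 to 7 with 1 sample left out (7 without DNBS 5 and 6 without Nissle 1). For CEC against healthy the count of 1 became 2 with undetermined values set to 40, and 0 with quantile normalization, without normalization, in a fit to both groups alone, without Nissle 3, 4 and 5 and with the replicate block, and was 0 to 1 with 1 sample left out. For Nissle against healthy it became 3 with undetermined values set to 40, and 0 without normalization, in a fit to both groups alone, without the same 3 samples and with the replicate block, and was 0 to 1 with 1 sample left out. For CEC against DNBS array weights gave 21. Where a count moved, the cause was not tested. The block changed no other call, and outside DNBS against healthy the shared numbers had correlations that were not all over 0.1 or came from only 2 pairs.

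Among the 3 members of smallest p in each comparison, direction turned for Tgfbr1_Mm03024015_m1, CEC against Nissle, without normalization (-0.070), and for Bmp3_Mm03024297_s1, Nissle against DNBS, without Nissle 3, 4 and 5 (0.029). Over the 31 members tested, centring of sections turned the direction of 2, 9, 6, 7, 7 and 2 in the 6 comparisons in the report's order, and leaving out some 1 sample that of 8, 14, 11, 11, 14 and 15. Without normalization the median of all assays moved to 0.16, -0.04, 0.33, -0.21, 0.14 and -0.33 in those comparisons, and the members lower became 18, 16, 10, 13, 8 and 25 of 31. Precision is limited by 5 samples a group: the SE of the DNBS against healthy difference had a median of 0.53 over the members and 0.42 over all assays.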
